A study of Homo sapiens with 8 samples.

Results

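The genes described here encode the factors that start protein synthesis on the ribosome and that move it along the mRNA. They were taken as all genes with coding rows whose symbol starts with EIF or EEF followed by a digit, leaving out the eIF2 kinases, the 3 eIF2 subunits and the eIF4E-binding proteins. This gave 57 of the 19964 genes with a coding transcript. Each gene was represented by the transcript with the most CDS footprints in control, and 50 of the 57 had a mean of at least 10 counts in ribo-seq (reads on the CDS) and in mRNA-seq (reads over the transcript). The passing genes comprised 13 of 14 eIF3 genes, 11 of 13 eIF4 genes, 5 of 5 eIF2B genes, 9 of 11 elongation genes, 8 of 10 other initiation genes and 4 of 4 genes EIF2C1 to EIF2C4. The last 4 carry an older symbol of argonaute proteins, which act in RNA silencing. They are members by their letters only and are given apart. The other genes were also grouped by symbol, so a group name does not show that each member acts in that step.

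The cells were HEK293T, an established human embryonic kidney line that carries the SV40 large T antigen. They received 40 µM sodium arsenite or vehicle for 30 min, and cycloheximide was added to the wash and lysis buffers after harvest in both groups. Ribo-seq, which sequences the mRNA fragments that ribosomes protect, and mRNA-seq of the same lysates were done in 2 replicates per condition, which gave 8 libraries. On the chosen transcripts the ribo-seq libraries held 1023935 to 7270196 reads and the mRNA-seq libraries 3993293 to 21724945, and replicate 1 was the shallower in both conditions. All 5 markers of the line (KRT8, KRT18, VIM, NEFM and PAX2) had mRNA-seq reads in every library. Their sum per library ranged from 1426 to 12358, most of it from VIM (1074 to 9008). KRT8 had 42 to 159 reads and PAX2 6 to 71. The 5 markers of other cell types (PTPRC, CD3E, ALB, HBB and COL1A1) summed to 47 to 282 reads per library, with CD3E and HBB at 0. Most of these reads were from COL1A1 (44 to 266). It had more reads than PAX2 in every library and more than KRT8 in all but replicate 1 of arsenite.

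In the initiation pathway, eIF3 is a large complex that holds the small ribosomal subunit ready for mRNA. The eIF4 group binds the cap (eIF4E), unwinds the leader (eIF4A, helped by eIF4B and eIF4H) and ties these to the ribosome through the scaffold eIF4G. eIF2B reloads eIF2 with GTP after each round and is the enzyme that phosphorylated eIF2 blocks, which is the known route by which arsenite lowers protein synthesis. In elongation, eEF1A delivers aminoacyl-tRNA, the eEF1B subunits recharge eEF1A with GTP, eEF2 moves the ribosome by a codon, and eIF5A helps at stalling sequences. Many of these mRNAs begin with a run of pyrimidines directly at the cap, called a 5′ terminal oligopyrimidine (TOP) tract, which makes their translation depend on mTOR signalling.

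The start regions of the factor genes were read from RefSeq promoters of build GRCh38.p14, because the groups differed in this feature. A tract was scored where a C followed by at least 4 C or T on the sense strand started within 5 bases of the annotated start. Of the 57 genes, 48 had an entry in the promoter table (not EEF1A2, EEF1D, EIF2C2, EIF3A, EIF3CL, EIF3E, EIF3G, EIF3H and EIF3L). Among the 42 passing genes with an entry, 19 (45.2%) held a tract at a listed start, beside 28.0% of 15843 protein-coding genes, 21.1% of all 35116 promoters in the table and 82.8% of 64 ribosomal protein genes. By group these were 6 of 8 eIF3 genes, 5 of 11 eIF4 genes, 4 of 7 elongation genes, 4 of 8 other initiation genes, 0 of 5 eIF2B genes and 0 of 3 argonaute genes. In EIF3C, EIF5A2, EIF1 and EIF5 the tract began 5 bases before the annotated start and was 5 bases long. It therefore ended before the first annotated base of the transcript. The count was 14 (33.3%) with a start within 2 bases, beside 14.7% of protein-coding genes, and 33 within 20 bases. Within 2 bases there were 5 eIF3 genes, 4 eIF4 genes, 3 elongation genes and 2 other initiation genes. The windows below are those of 3 elongation genes, 4 eIF3 genes and EIF4B, which hold the tract, and of 3 eIF2B genes, which do not. Each runs from 5 bases before the annotated start to the 20th base of the transcript, and capitals mark the tract.
EEF1A1, chr6:73521013-73521037, minus strand: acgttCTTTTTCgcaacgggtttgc
EEF1B2, chr2:206159890-206159914, plus strand: cgggtCCTTTTTCCTCTCTTCagcg
EEF2, chr19:3985444-3985468, minus strand: gcgttCTCTTCCgccgtcgtcgccg
EIF3D, chr22:36529147-36529171, minus strand: gtttCCTCTTTTCCTggtttctcaa
EIF3F, chr11:7987332-7987356, plus strand: gCCTCCTTCTTTCTCgacaagatgg
EIF3K, chr19:38619183-38619207, plus strand: accaCCTCTTCCTgttcccgtcctt
EIF3M, chr11:32583826-32583850, plus strand: gttCCCTTTTCCggtcggcgtggtc
EIF4B, chr12:53006451-53006475, plus strand: cgggtCTTTTgcgttctctttccct
EIF2B1, chr12:123633667-123633691, minus strand: gaagtgcgccggaagtggggtgcgg
EIF2B2, chr14:75002916-75002940, plus strand: gccccggaagtgcaaactgtgtggt
EIF2B3, chr1:44986576-44986600, minus strand: cagtcagaggcggcgtggagatcgc
In EEF1A1, EEF1B2, EEF2 and EIF4B the tract began at the first transcribed base of the annotation, and in EEF1B2 it ran over 16 bases. EEF1B2 has a second listed start without a tract. These matches describe letters near annotated starts, and the starts used in HEK293T cells were not measured here.

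The first question was how translation of the factor mRNAs changed with arsenite relative to that of other mRNAs. Translation efficiency (TE) is the ratio of CDS footprints to mRNA-seq reads of the same gene, and its change is given on the log2 scale, arsenite minus control. Each assay was scaled so that the bulk of mRNAs did not move, so the overall fall of protein synthesis in arsenite is not part of any value. Among the factors, the elongation group stood lowest, with all 9 fitted values below 0 and a median of −0.52. Of these 9 genes, 7 were below 0 in both replicates. The eIF3 group followed with a median of −0.31 (9 of 13 below 0), the eIF4 group had −0.04 (6 of 11), the other initiation factors −0.05 (4 of 8), eIF2B 0.08 (2 of 5) and the argonautes −0.27 (2 of 4). Over all 10273 genes tested the median was −0.01 and 51.3% of values lay below 0. In the separate replicates the elongation medians were −0.36 and −0.51, the eIF3 medians −0.27 and −0.21, the eIF4 medians 0.22 and −0.12, and the eIF2B medians 0.33 and −0.05, so that the sign for eIF4 and eIF2B depended on the replicate.

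**Figure D1:**
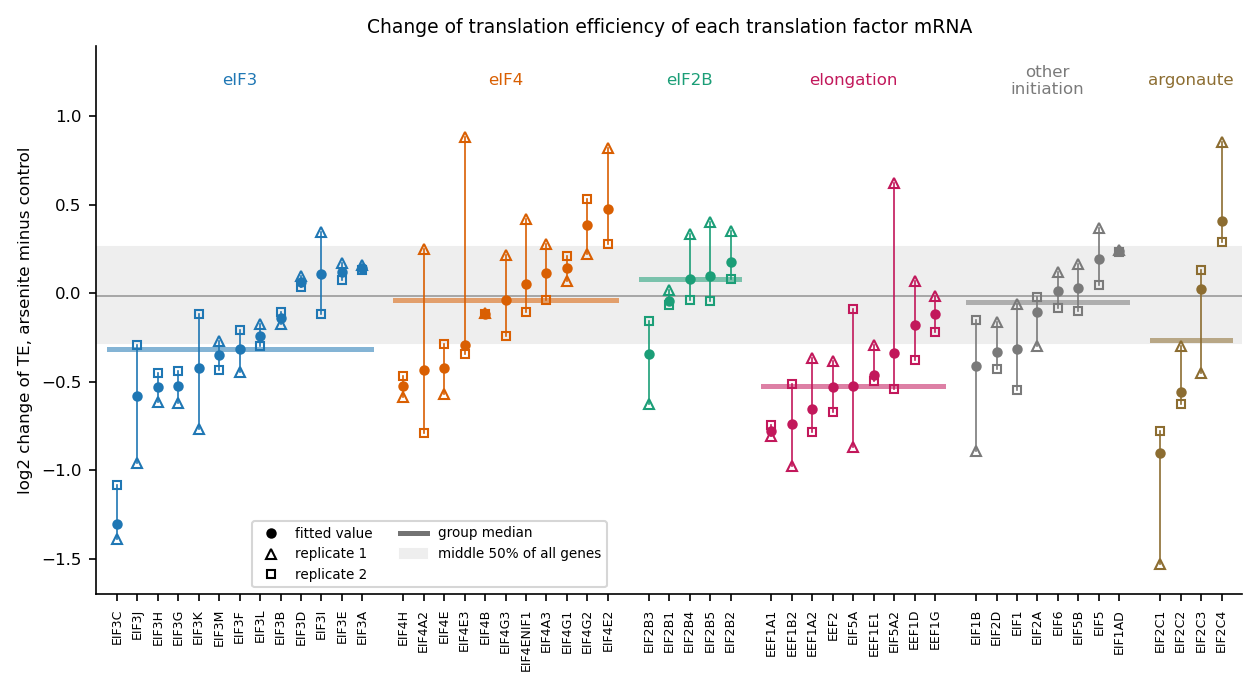
Log2 change of TE for the 50 factor mRNAs, one column per gene, ordered within the 6 groups; filled circles are fitted values, triangles and squares are replicates 1 and 2, thick bars are group medians, and the grey band holds the middle 50% of the 10273 genes tested. The fitted values of all 9 elongation genes lie below 0, with 7 of the genes below 0 in both replicates. EEF1A1 has both replicates close together at −0.81 and −0.74.

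Single genes mostly did not pass the test. In the quasi-likelihood test of edgeR, adjusted by Benjamini-Hochberg, 1 of the 50 factor mRNAs, EEF1A1, was called at the threshold of 0.05, in the lower direction. In the same test 1.00% of all genes were called lower and 0.993% higher, so the share called among the factors (2%) was close to the 2.00% called among all genes. At an unadjusted p under 0.05 the number was 16 of 50, beside 2171 of all 10273 genes. Each fit kept the replicate as a term, since the replicates were independent experiments whose libraries carried different adapters. With no replicate block, that is without this term, no gene of any kind was called for TE, footprints or mRNA, and the number of factors with an unadjusted p under 0.05 was 0, 1 and 0. Of the 50 genes, 26 had a TE change below 0 in both replicates and 10 above 0 in both. Among protein-coding genes with a promoter entry, 868 of 2378 with a tract and 1779 of 5570 without were below 0 in both. Above 0 in both were 668 and 1685 of these. The difference from the factors was not tested.

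EEF1A1 encodes the main carrier of aminoacyl-tRNA in most dividing cells. Its CDS footprints were 18004 and 11425 in control and 10189 and 6572 in arsenite, as normalised counts scaled to library size (CPM) and for replicates 1 and 2 in this order, as throughout. Both arsenite libraries lay below both control libraries. Its mRNA stood at 13136 and 10073 CPM in control and 13018 and 9695 in arsenite, with overlapping groups. The log2 change of TE was −0.78 ± 0.12 (SE, adjusted p = 0.0233, edgeR), that is 0.58 times control. The change of footprints was −0.81 ± 0.18 (adjusted p = 0.0211, edgeR), and that of mRNA was −0.03 ± 0.05 (adjusted p = 0.755, edgeR).

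EEF1B2, a subunit of the exchange factor that recharges eEF1A, had almost the same pattern. Its footprints were 1034 and 702 CPM in control and 536 and 440.2 in arsenite, so that the groups did not overlap. They fell by 0.81 on the log2 scale (SE 0.18, adjusted p = 0.0207, edgeR). Its mRNA was 655 and 774 CPM in control and 669 and 693 in arsenite. The TE change of −0.74 ± 0.16 narrowly missed the threshold (adjusted p = 0.0529, edgeR), with −0.98 and −0.51 in the replicates. EEF1A1 and EEF1B2 were the only factors called for footprints, both lower (4%), where 2.81% of 10291 genes were called, 1.35% lower and 1.46% higher. The next was EIF2C1 at −1.04 ± 0.29 (adjusted p = 0.0542, edgeR), which was called lower under 4 alternatives (upper-quartile scaling, no filter on low counts, a mean of at least 50 counts, and footprints over the whole transcript).

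The partners of EEF1B2 in the exchange complex, EEF1G and EEF1D, had values nearer to 0. EEF1G, which anchors the complex, had the smallest TE change of the group at −0.12 ± 0.14, with 1982 and 1651 footprint CPM in control and 1835 and 1342 in arsenite. EEF1D stood at −0.18 ± 0.17, with footprint changes of opposite sign in the replicates (0.10 and −0.34). EEF1E1, named with them but a scaffold partner of aminoacyl-tRNA synthetases, stood at −0.46 ± 0.19. In none of these 3 did the test pass. EIF5A stood at −0.52 ± 0.28, but its replicates disagreed (−0.87 and −0.09) and its footprints differed widely between the control libraries (408 and 49.6 CPM). EIF5A2, its less abundant paralog, had changes of opposite sign in the replicates (0.62 and −0.54).

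EEF2 and EEF1A2 differed from EEF1A1 in that their mRNAs rose. EEF2, the translocase, had 2509 and 2085 mRNA-seq CPM in control and 3398 and 2638 in arsenite. Its mRNA rose by 0.39 ± 0.05 on the log2 scale (1.31-fold, adjusted p = 1.51e-13, edgeR). Both arsenite libraries lay above both control libraries. Its footprints overlapped, with 5136 and 4897 CPM in control and 5324 and 3888 in arsenite, a change of −0.14 ± 0.19. EEF1A2, the paralog of EEF1A1 known mainly from nerve and muscle, had 47.4 and 43.2 mRNA-seq CPM in control and 61.8 and 57.3 in arsenite. That is a rise of 0.40 ± 0.07 (1.32-fold, adjusted p = 4.29e-06, edgeR), and again the groups did not overlap. Its footprints were 93.6 and 197 CPM in control and 94.8 and 152 in arsenite. The TE changes of −0.53 ± 0.16 for EEF2 (adjusted p = 0.101, edgeR) and −0.65 ± 0.17 for EEF1A2 (adjusted p = 0.0741, edgeR) were not called.

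**Figure D2:**
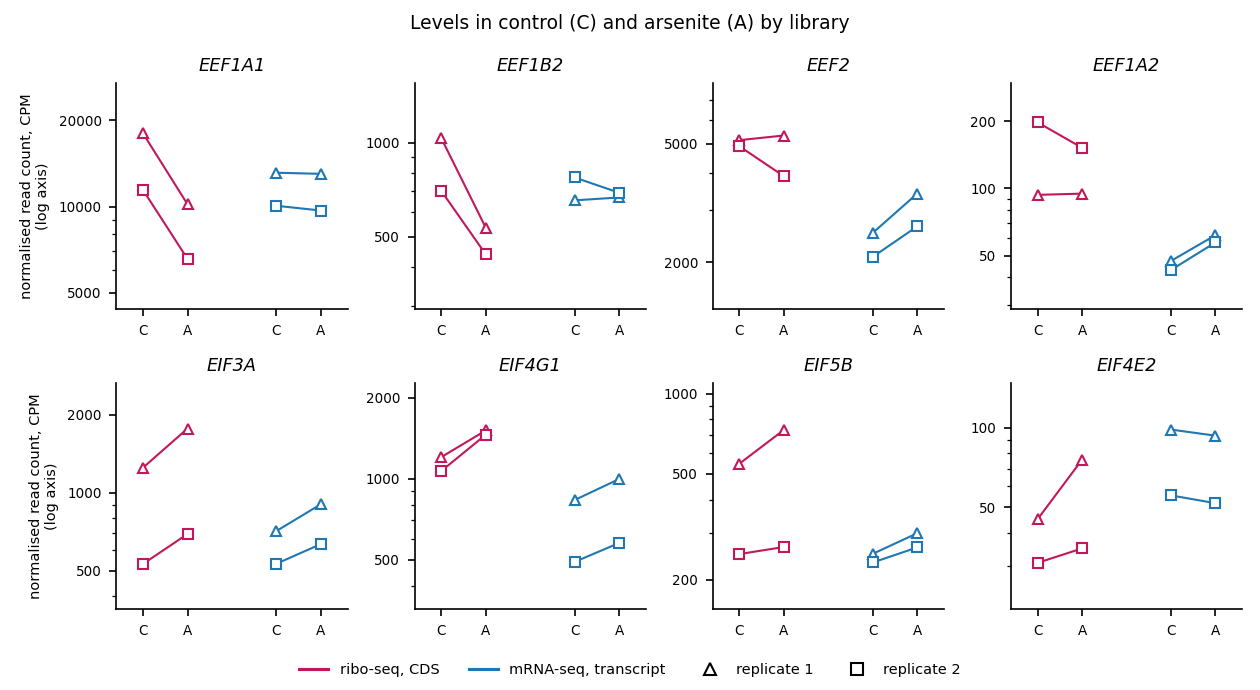
Normalised read counts (CPM, log axes) of 8 factor genes in control (C) and arsenite (A), with ribo-seq reads on the CDS in magenta and mRNA-seq reads over the transcript in blue; lines join the libraries of replicate 1 (triangles) and of replicate 2 (squares). Footprints of EEF1A1 and EEF1B2 lie lower in arsenite in both replicates, and mRNA of EEF2, EEF1A2, EIF3A, EIF4G1 and EIF5B lies higher in both.

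Changes of mRNA level were small over 30 min and, where called, all upward. Of the 50 factors 5 rose (10%) and none was called lower, where 5.75% of 12600 genes were called, 3.75% higher and 2.00% lower. Besides EEF2 and EEF1A2 these were EIF3A, EIF4G1 and EIF5B. EIF3A, the largest subunit of eIF3, had 711 and 532 CPM in control and 903 and 633 in arsenite, a rise of 0.29 ± 0.05 (adjusted p = 4.37e-07, edgeR). EIF4G1, the main cap-binding scaffold, had 833 and 491 in control and 997 and 578 in arsenite, a rise of 0.24 ± 0.05 (adjusted p = 5.99e-05, edgeR). In both genes the library of each replicate was higher in arsenite than in its own control, while the groups overlapped across replicates. EIF5B, the GTPase that joins the ribosomal subunits, had 251 and 233 CPM in control and 299 and 265 in arsenite without overlap, a rise of 0.21 ± 0.05 (adjusted p = 0.00239, edgeR). By DESeq2 the rises of EEF2, EIF3A and EIF4G1 were called and that of EIF5B was not, and EEF1A2 received no adjusted p. DESeq2 called 87 of the 12600 genes, where edgeR called 725. EIF3I, with a change of −0.15 ± 0.05 (adjusted p = 0.0527, edgeR), was called lower with upper-quartile scaling only. The median change of the 50 mRNAs was 0.02, beside −0.01 over all genes.

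Footprints of EIF3A, EIF4G1 and EIF5B were also higher in both replicates, by 0.44, 0.39 and 0.25 on the log2 scale, and none of these was called. The TE change of EIF3A was 0.14 ± 0.14, the highest of the eIF3 genes, that of EIF4G1 was 0.14 ± 0.14 and that of EIF5B 0.03 ± 0.16. In EIF3A the footprints were 1251 and 531 CPM in control and 1771 and 693 in arsenite. In EIF4G1 they were 1202 and 1068 in control and 1509 and 1455 in arsenite, which did not overlap, although the change of 0.39 ± 0.18 was not called (adjusted p = 0.262, edgeR).

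**Figure D3:**
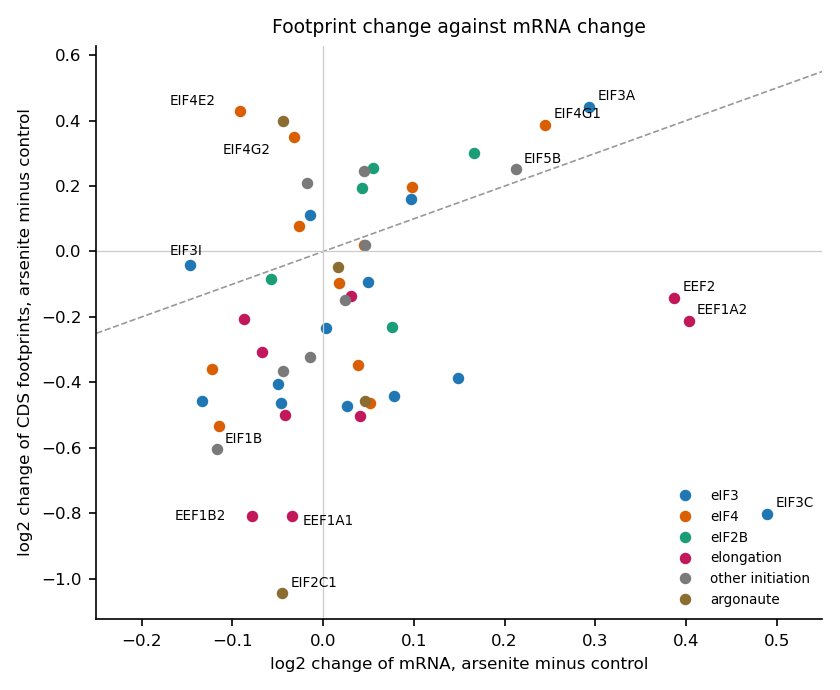
Log2 change of CDS footprints (vertical axis) against log2 change of mRNA (horizontal axis) for the 50 factors, arsenite minus control, coloured by group; on the dashed line TE did not change. EEF2 and EEF1A2 lie far to the right and below the line, EIF3A, EIF4G1 and EIF5B lie near it, and EEF1A1 and EEF1B2 lie low with almost no change of mRNA.

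None of the 13 eIF3 genes was called for TE, and differences between subunits were not tested. The core subunits EIF3A and EIF3B stood at 0.14 ± 0.14 and −0.14 ± 0.15 in TE, and EIF3D, EIF3E and EIF3I at 0.06, 0.12 and 0.11. EIF3G, an RNA-binding subunit, and EIF3H, another subunit of the complex, stood at −0.52 ± 0.15 (adjusted p = 0.0893, edgeR) and −0.53 ± 0.15 (adjusted p = 0.0965, edgeR). Their footprints in control were 492 and 338 CPM for EIF3G and 213 and 255 for EIF3H, and in arsenite 343 and 261 for EIF3G and 156 and 181 for EIF3H. The arsenite libraries of EIF3H lay below its control libraries, while those of EIF3G overlapped them. EIF3J, a loosely bound subunit, stood at −0.58 ± 0.18, EIF3K at −0.42 ± 0.19, EIF3M at −0.35 ± 0.15, EIF3F at −0.31 ± 0.15 and EIF3L at −0.24 ± 0.15. The adjusted p of eIF3 genes was 0.0893 or more, so none of these differences passed the test.

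EIF3C had the lowest value of all factors, −1.30 ± 0.46, and the fewest reads. Its CDS footprints were 24 and 11 reads in control against 7 and 3 in arsenite, and it had from 12 to 72 mRNA-seq reads per library. Reads that mapped to more than 1 gene were discarded by the study, and EIF3C shares nearly all of its sequence with EIF3CL, which had 0 CDS footprints in every library. The change was not called (adjusted p = 0.149, edgeR).

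Among the eIF4 genes the values went both ways and none passed. EIF4H, a helper of the helicase eIF4A, was lowest at −0.53 ± 0.15 (adjusted p = 0.0912, edgeR), with 465 and 364 footprint CPM in control and 339.8 and 261 in arsenite, which did not overlap. EIF4E, the cap-binding protein, stood at −0.42 ± 0.15, with 385 and 161 footprint CPM in control and 243 and 121 in arsenite. At the other end EIF4E2, a cap-binding paralog linked to repression, stood at 0.47 ± 0.19 (adjusted p = 0.197, edgeR), with 45.1 and 30.8 in control and 75.6 and 34.9 in arsenite. EIF4G2, a scaffold without the cap-binding part, stood at 0.38 ± 0.16 (adjusted p = 0.204, edgeR), with 724 and 389.9 in control and 829 and 551 in arsenite. Both genes were higher in both replicates relative to their mRNAs, and both had overlapping groups. EIF4B (−0.11), EIF4G3 (−0.04), EIF4ENIF1 (0.05) and EIF4A3 (0.12), a helicase of the exon junction complex, lay near the middle of all genes. EIF4A2, a helicase, had 0.25 in replicate 1 and −0.79 in replicate 2, and EIF4E3, a cap-binding paralog with few footprints, 0.89 and −0.35.

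The eIF2B subunits had values around 0. EIF2B2 (beta) stood highest at 0.18 ± 0.16 and EIF2B3 (gamma) lowest at −0.34 ± 0.17, and EIF2B1, EIF2B4 and EIF2B5 at −0.04, 0.08 and 0.10. Footprints of EIF2B2 were 90.1 and 98.6 CPM in control and 119 and 109 in arsenite, without overlap, and those of EIF2B3 were 162 and 107 in control and 131 and 95.03 in arsenite, with overlap. None passed the test, with adjusted p of 0.275 or more in edgeR. Among the genes grouped by symbol as other initiation, EIF1B, a paralog of the start-codon factor EIF1, was lowest at −0.41 ± 0.23. EIF1AD, whose role in initiation is not shown by its symbol, was highest at 0.24 ± 0.16. EIF5B is given above, and EIF1 stood at −0.31, EIF2D at −0.33, EIF2A at −0.11, EIF6, which keeps the large subunit apart, at 0.01, and EIF5, the GTPase activator of eIF2, at 0.20. Of the argonautes EIF2C1 stood at −0.90 ± 0.23 (adjusted p = 0.0676, edgeR), with 58 and 265 CDS footprints in control and 10 and 65 in arsenite, and EIF2C4 at 0.41 ± 0.37, with 6 and 36 in control and 6 and 18 in arsenite. EIF2C2 and EIF2C3 stood at −0.56 and 0.03.

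By start sequence, the 19 factor genes with a tract had a median TE change of −0.33 and the 23 without one −0.04. The same split over the protein-coding genes tested gave −0.05 for 2378 genes with a tract and −0.0036 for 5570 without. The 80 ribosomal protein mRNAs tested, the other large family with such tracts, had a median of −0.14. Of these 2 were called higher and 2 lower (5%, beside 2.00% of all genes). In the separate replicates the factors with a tract had medians of −0.16 and −0.29, and those without 0.12 and −0.11. No test was made of this split, and the groups of factors differ in their share of tracts. The 19 include EIF3C, EIF5A2, EIF1 and EIF5, whose tracts end before the annotated start. Medians for tracts starting within 2 bases were not computed.

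The second question was how well each factor mRNA was translated in either condition. Here TE compares CDS footprints with CDS reads of mRNA-seq, so that coding length cancels, and 0 is the bulk of mRNAs. In control the group medians were 0.48 for eIF3, 0.38 for eIF2B, 0.16 for elongation, −0.05 for other initiation, −0.15 for eIF4 and −0.22 for the argonautes, beside 0.01 over 10611 genes. In edgeR's test 5 factors lay above the bulk and 4 below it (18%), where 22.0% of all genes were called, 8.39% above and 13.6% below. In arsenite the medians were 0.28 for eIF3, 0.38 for eIF2B, −0.15 for elongation, −0.29 for other initiation, −0.30 for eIF4 and −0.92 for the argonautes. Of 48 factors tested in arsenite, 2 were above and 4 below, where 21.5% of 9589 genes were called, 8.23% above and 13.3% below. The order of the control medians depended on the replicate, with 0.64 and 0.23 for eIF3, 0.47 and 0.30 for eIF2B and 0.52 and 0.02 for elongation.

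In control the best translated called factor was EEF1A2 at 1.41 ± 0.34 (adjusted p = 0.0116, edgeR), with 0.84 and 1.94 in the replicates. It was followed by EIF1AD at 1.10 ± 0.31, EIF3K at 1.05 ± 0.31, EIF4E at 1.05 ± 0.31 and EIF4A3 at 1.01 ± 0.30, each 2.01 to 2.15 times the bulk, and neighbours in this order did not differ beyond their errors. EIF3C was higher still at 1.51 but rested on few reads and was not called. The called factors below the bulk were EIF2C4 at −2.13 ± 0.42, EIF4A2 at −1.26 ± 0.30, EIF4G2 at −1.23 ± 0.33 and EIF4E2 at −1.06 ± 0.30, so that 5 of the 9 called factors were eIF4 genes, 2 above and 3 below. The lowest of eIF3 was EIF3L at −0.57, the lowest elongation gene EEF1G at −0.72, and the lowest other initiation factor EIF2D at −0.74. In eIF2B the values ran from −0.37 (EIF2B1) to 0.86 (EIF2B3), and EIF2C2 was the highest argonaute at 0.01. With mRNA-seq reads over the whole transcript in place of the CDS, 26 factors were called in control, 18 above and 8 below, among them no longer EIF1AD (0.12), EIF4E and EIF4E2. Over all genes 3629 of 10644 were then called. With no replicate block only EIF2C4 was called in control and only EIF4A2 in arsenite, beside 377 of 10611 and 511 of 9589 genes.

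In arsenite the called factors were EIF1AD at 1.37 ± 0.37, EIF4A3 at 1.07 ± 0.35, EIF4A2 at −1.59 ± 0.38, EIF2D at −1.09 ± 0.36, EIF2C1 at −1.28 ± 0.40 and EIF2C4 at −1.61 ± 0.50. By DESeq2 the calls of EIF2D, EIF2C1 and EIF2C4 were lost, where 1192 of 9589 genes were called (2061 by edgeR). EEF1A1 went from 0.16 in control to −0.65 in arsenite, and EEF1B2 from 0.03 to −0.74. EIF4E2 went from −1.06 to −0.54 and EIF4G2 from −1.23 to −0.91. The values of EIF4E2 and EIF4G2 thus lay nearer to the bulk in arsenite and those of EEF1A1 and EEF1B2 farther below it, and of these 4 TE changes that of EEF1A1 alone was called.

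**Figure D4:**
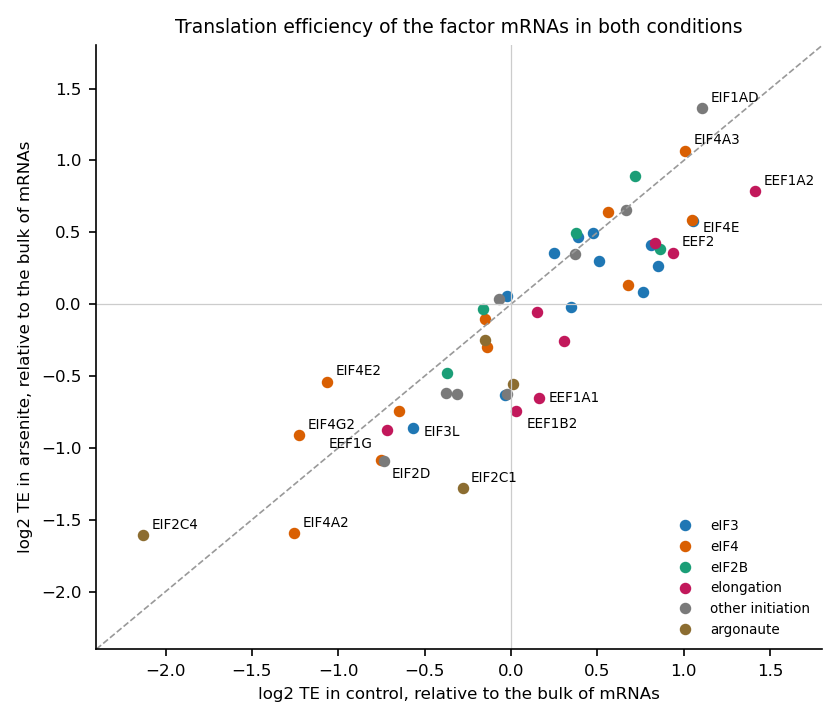
Log2 TE in arsenite against log2 TE in control for the 48 factors tested in both, relative to the bulk of mRNAs at 0, coloured by group; the dashed line marks equal values. EEF1A1, EEF1B2 and EEF1A2 lie below the line, and EIF4E2 and EIF4G2, at −1.06 and −1.23 in control, lie above it.

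The third measure was the share of footprints in whole 5′ leaders. It differs from that of the study, which counted reads in individual upstream open reading frames (uORFs) starting with AUG. Over all chosen transcripts, the leader share of leader and CDS footprints was 0.392% and 0.797% in control and 0.491% and 1.53% in arsenite. Only 9 of the 50 factors had a mean of at least 10 leader footprints. EIF5 had the most, with 67 leader beside 464 CDS footprints in replicate 1 of control (12.6%) and 416 beside 1946 in replicate 2 (17.6%). In arsenite it had 48 beside 338 (12.4%) and 154 beside 875 (14.97%). The 95% Wilson intervals of EIF5 in control were 10.1% to 15.7% and 16.1% to 19.2%, and in arsenite 9.51% to 16.1% and 12.9% to 17.3%. The leader shift is the log2 change of the ratio of leader to CDS footprints, arsenite minus control. A positive shift thus means relatively more footprints in the leader. The study describes the other direction, from leaders to the CDS, for resistant mRNAs. It measured this by the centre of ribosome density on the mRNA relative to CDS length, so the values are not directly comparable. The shift of EIF5, −0.20 ± 0.33, was the lowest of the 9 when scaled by CDS counts, where the median over 647 genes was 0.82.

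EIF4G2 had 15 and 178 leader footprints in control (1.18% and 5.61%) and 13 and 172 in arsenite (1.64% and 8.73%), a shift of 0.70 ± 0.38. EEF1B2 had 20 and 78 in control (1.11% and 1.43%) and 11 and 54 in arsenite (2.14% and 3.62%), a shift of 1.29 ± 0.41. In EIF1B the share was 4.43% and 5.90% in control and 11.6% and 16.2% in arsenite (shift 1.71 ± 0.58), and in EIF1AD 0.855% and 7.46% against 10.1% and 15.1% (shift 1.56 ± 0.56). The shifts of EIF4G3, EIF4G1, EEF1A1 and EIF1 were 0.31, 1.07, 1.22 and 0.07. None of the 9 was called by edgeR, where 0.155% of all 647 genes were called. At an unadjusted p under 0.05 there were 3 of the 9 and 189 of the 647. With leader and CDS counts scaled to their own totals the median of all genes was −0.02 in place of 0.82, and none of the 9 had an unadjusted p under 0.05. The shifts of EIF4G2, EIF4G3 and EIF1 then lay below 0 (−0.07, −0.50 and −0.87), so their direction depends on the scaling. Those of EIF1B, EIF1AD, EEF1B2, EIF4G1 and EEF1A1 were 0.95, 0.77, 0.55, 0.34 and 0.32, and that of EIF5 was −0.87.

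**Figure D5:**
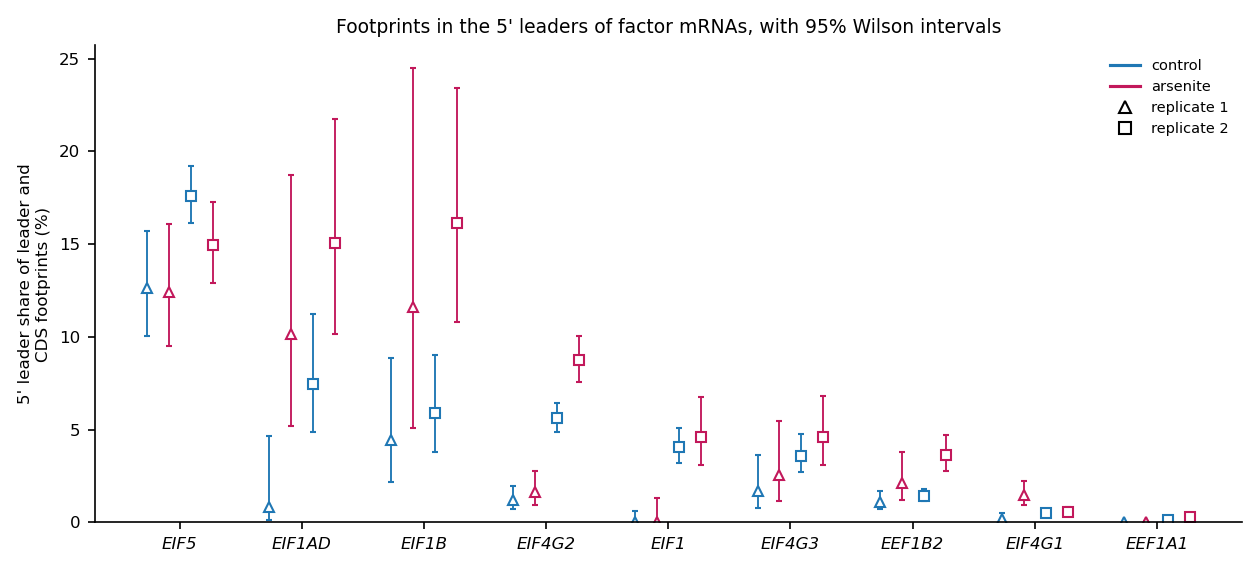
Share of leader and CDS footprints that lie in the 5′ leader (percent) for the 9 factors with enough leader reads, by library, with 95% Wilson intervals that cover counting error only; blue is control, magenta arsenite, triangles replicate 1 and squares replicate 2. EIF5 is high in all 4 libraries, from 12.4% to 17.6%. EIF1AD, EIF1B, EIF4G1, EIF4G2, EIF4G3, EEF1B2 and EEF1A1 are higher in arsenite than in control in both replicates, as is the share over all chosen transcripts.

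The filter on counts left out 7 genes. EIF1AX, the partner of EIF1 in start codon choice, had 1019 and 6153 mRNA-seq reads in control but 10 and 6 CDS footprints there, with 4 and 102 footprints in its leader. Its CDS also held only 1 and 10 mRNA-seq reads. EEF2K, the kinase that inhibits eEF2, had 80 and 370 mRNA-seq reads in control, 0 CDS reads in both assays, and 1 and 11 footprints in its leader. EIF4A1, the main eIF4A helicase, had 68 and 70 mRNA-seq reads and 0 and 1 CDS footprints in control, so this central factor is not described here. EIF5AL1, EIF4E1B, EIF3CL and EIF1AY had no CDS footprints in any library.

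Other genes of the pathway give a frame for the group values. Of 3 eIF2 subunits none was called for TE, with values of −0.06 (EIF2S1), 0.34 (EIF2S2) and −0.44 (EIF2S3). The lists were drawn up with earlier results known. Of 8 poly(A)-binding and helper proteins tested 2 fell (25%, beside 1.00% of all genes), PABPC1 by 1.58 and PAIP1 by 0.87 on the log2 scale, and the median of the 8 was −0.58. PABPC1, the main poly(A)-binding protein, is itself a known TOP mRNA. The study already names it among its most sensitive mRNAs in these same data. The share of 25% is therefore not independent of that result. Of 7 termination, recycling and reinitiation genes 1 fell (14.3%, beside 1.00% of all genes), the ribosome rescue factor HBS1L, by 0.86, and the median was −0.27. None of 9 mitochondrial factors (median 0.13) and none of 7 genes for factor modification and selenocysteine (median −0.25) was called for TE. For footprints PABPC1 and PAIP1 (2 of 8 tested) and HBS1L (1 of 7) were called, all lower (1.35% of all genes). For mRNA PABPC1 (1 of 8) and GFM1 (1 of 9) were called higher (3.75% of all genes) and DPH2 (1 of 7) lower (2.00%).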

How the data were processed

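Ribo-seq and mRNA-seq of HEK293T cells with 40 µM sodium arsenite or vehicle for 30 min were analysed from count tables of 8 libraries, 2 per assay and condition. The deposited values are whole-number counts of reads per RefSeq transcript, not normalized. Per the study's methods and the labels, the authors trimmed adapters with cutadapt, removed spike-in and rRNA reads, aligned to RefSeq transcripts with Bowtie 1.0.0, discarded reads of more than 1 gene or with repeated positions in a transcript, and kept ribo-seq reads of 29 to 35 nt placed at the A-site. In the same tables the authors split the counts of coding transcripts into 5′ leader, CDS and 3′ UTR, and these other columns were used as counts of each region. Genes with near-identical copies lose reads by this mapping. The members, groups and gene lists were chosen with earlier results of these data known.

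Members were those named in the opening, one transcript per gene (most CDS footprints over both controls, of 35851 coding transcripts), with a mean of at least 10 counts per assay. All genes were fitted together with edgeR 4.0.16 in R 4.3.3 (quasi-likelihood test, TMM, Benjamini-Hochberg, threshold 0.05). The TE change was the interaction of assay and treatment, with TMM factors computed within each assay. Control and arsenite TE were scaled over both assays. The leader shift was the interaction of region and treatment in genes with a mean of at least 10 leader counts, scaled by CDS counts. For each replicate alone, 0.5 was added to the counts. Scripts were tested on simulated data. Per the study's methods the replicates were independent biological ones, while the labels give only their numbers. Replicates were paired as a block because the libraries of each carried their own adapter, and deviations of same-numbered libraries from their condition means correlated at 0.70 in ribo-seq and 0.77 in mRNA-seq. Full values were given for factors called in any comparison and for the highest and lowest of each group in TE change and control TE. Alternatives were DESeq2 1.42.0, upper-quartile scaling, other count minimums, other regions or transcripts, no block and each replicate alone. Spike-in scaling was not used here, and ribosome density per coding length was not computed, so levels are not compared between genes except as TE. Wilson intervals (95%) cover counting error only. One gene of the list of poly(A)-binding and helper proteins is not reported here, and the values of that list leave it out.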

Additional observations from a re-analysis of the deposited data

Results flagged for a closer look

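Footprints in 3′ UTRs, which no comparison above uses, made up a larger share in arsenite than in control for 6 factor mRNAs in both replicates, with 95% Wilson intervals apart in replicate 2. Over all chosen transcripts the 3′ UTR share of CDS and 3′ UTR footprints was 0.102% and 0.206% in control and 0.202% and 0.766% in arsenite. In EIF4A2, 0 and 36 such footprints in control (0% and 5.18%) stood against 2 and 93 in arsenite (3.28% and 35.2%), beside 96, 659, 59 and 171 CDS footprints. The interval of the last share was 29.7% to 41.2%. In EIF4E it went from 0.150% and 0.241% to 2.56% and 8.33%, and in EIF4H from 0% and 0.427% to 0.623% and 3.40%. In EIF1 it went from 1.12% and 6.96% to 2.37% and 13.4%, and in EIF1B from 6.21% and 7.62% to 9.52% and 18.1%. In EEF1A1 it was 0.0834% and 0.0762% in control and 0.0940% and 0.376% in arsenite. These 6 were among 11 factors with at least 10 such footprints in all. The rule was not applied to all genes, and the share over all chosen transcripts also rose in both replicates. Whether the 6 differ in this from other mRNAs was not tested.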

How the results depend on the processing

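The factors called for TE change numbered 1 as reported and 6 with no filter on low counts (EEF1A2, EEF1B2, EEF2, EIF2C1 and EIF4H besides EEF1A1). Over all genes 205 of 10273 and 768 of 17425 were called. With no replicate block the TE, footprint and mRNA calls were 0, 0 and 0, and 1 each for control and arsenite TE. Over all genes these last 2 were 377 of 10611 and 511 of 9589. By DESeq2 3 were called for mRNA (5 by edgeR) and 3 for arsenite TE (6 by edgeR). Over all genes DESeq2 called 87 of 12600 for mRNA (725 by edgeR). For arsenite TE it called 1192 of 9589 (2061 by edgeR). Control TE calls, 9 as reported, were 15 with no filter and 26 with mRNA-seq reads over the transcript, which gave 17 in arsenite and control medians of 1.00 (eIF3), 1.14 (eIF2B) and 0.69 (elongation). Calls over all genes also rose in control, from 2336 of 10611 to 3390 of 15233 with no filter. With reads over the transcript they were 3629 of 10644 in control and 2773 of 9597 in arsenite. At a mean of at least 50 counts the TE medians of eIF3 and argonautes were −0.26 and −0.54. With tracts within 20 bases the count was 33, not 19. EIF2C2 in control turned to −0.059 with upper-quartile scaling and −0.051 with no replicate block, and EIF3L to 0.094 with reads over the transcript. In either replicate alone, which allows no test, TE medians ranged from −0.27 to −0.21 (eIF3), −0.12 to 0.22 (eIF4), −0.51 to −0.36 (elongation) and −0.37 to −0.25 (argonautes), and the control median of elongation from 0.022 to 0.52. The causes were not tested. The naming rule took up 41 results of single genes. Under alternatives 301 values counted as the same, 30 lost a call, 5 gained one, 5 moved and 3 changed sign. Where a test was made, the same meant an unchanged direction and side of the threshold. For a replicate alone it meant a distance from the fitted value below the standard deviation of the replicates. Sign changes of uncalled genes in a replicate alone were thus not counted, as for EIF2C2 in control (−0.81 and 0.74, fitted 0.01). EEF1A1 was called for TE under every alternative that kept the block. One alternative, TMM over all libraries together, was chosen after seeing the data. Ribosome density was not run. Depth left 9 of 50 factors with enough leader footprints to test.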
